A study of Drosophila melanogaster with 8 samples.

Results

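The genes described here encode the contractile proteins of muscle, measured in fly heads as 14 cDNA clones of 12 genes among the 13824 clones on the array. The rule names genes and uses no measured ratio, although the list was drawn up with earlier results of these data known. A list of 30 genes of the myosin filament, the actin filament and the Z-disc was searched in the array's annotation, which names 13 of them on 16 clones, and a clone was kept where it had a value on at least 2 arrays of each time point. Over the whole array 7166 clones met that count, and 4563 clones, 13 of them members from 11 genes, were measured on enough arrays to be tested. The other 17 genes of the list are not named in that annotation and were not analysed here. Among them are Mhc (the muscle myosin heavy chain), Act57B, Tm1, up (troponin T), wupA (troponin I), fln, bt and sls. The values below therefore cover a part of the filament and Z-disc genes rather than the whole sarcomere.

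Muscle contracts when myosin heads of the thick filament pull on actin of the thin filament, and both filaments are held in register by the Z-disc. Calcium starts the cycle by binding troponin C, which moves tropomyosin off the myosin sites on actin. Flies use separate actin and troponin C genes in different muscles: Act88F and TpnC4 serve the fibrillar indirect flight muscles of the thorax, while Act79B and TpnC41C serve tubular muscles. The head contains small tubular muscles, such as those that move the proboscis and antennae, beside the brain, retina and fat body.

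The flies were unmated Oregon-R males, a wild-type strain, 3 to 4 days old at the start. Treated flies ate food with 8 mg/ml pentylenetetrazole (PTZ), a convulsant that blocks GABA-gated channels, for 7 days and then food with 24 mg/ml vigabatrin (VGB), an antiepileptic drug that inhibits GABA transaminase, for 3 days. Heads were taken then (day 10), or after 4 more days on normal food (day 14), and flies kept on normal food for the same number of days were the control. Each time point had 4 arrays, each pairing RNA from its own treated and control pools of heads in 2 colours, with treated RNA in Cy5 on replicates 1 and 2 and in Cy3 on replicates 3 and 4. Every treated group here had received both drugs, so the effect of PTZ and that of vigabatrin cannot be told apart.

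Each value is the log2 of treated over control RNA, so that 0 is no difference, and no absolute level of any RNA can be read from them. The files do not state which channel is the numerator. Cy5 was likely divided by Cy3, so replicates with treated RNA in Cy3 were given the opposite sign here (turned). The number of spots with a value ran from 8419 to 20241 per array, and the array medians from -0.48 to 0.02 at day 10 and from -0.11 to 0.24 at day 14. Because these medians differ, each result is given with the ratios as deposited and after subtracting each array's median (centring). In bulk heads, fewer muscle cells and less RNA per muscle cell cannot be told apart. A ratio cannot show that muscle RNA was abundant. The members include TpnC41C and Act79B of tubular muscle and TpnC4 and Act88F of flight muscle. The member rule required measured values, so that they passed the authors' spot filters does not show it either. The flight muscle marker fln is among the genes not named in the annotation.

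The contractile genes had medians close to those of all tested clones at both times. At day 10, 12 of the 13 tested clones had an estimate below 0 as deposited, against 81.6% of all tested clones, and the members' median of -0.208 lay beside -0.214 for all tested clones. After centring, 6 of 13 were below 0 against 48.8% of all, with medians of 0.002 and 0.006. At day 14 the members' median was 0.057 as deposited and 0.015 after centring, against 0.033 and -0.012 for all clones, and 4 of 13 were below 0 in both scalings, against 44.0% and 52.0%. The day-14 median depended on single arrays: it was -0.018 without day-14 replicate 2 and 0.122 without day-14 replicate 4.

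One gene, the actin Act79B, was lower in treated heads at day 10 as deposited with the signs turned. Its call did not last through centring, nor without turning the signs. The test was limma's moderated test over all 4563 clones with a dye term for each clone, at a Benjamini-Hochberg adjusted p of 0.05. By it 1 of 13 members passed at day 10 as deposited, beside 14.0% of all tested clones (620 lower and 18 higher), and 4 of 13 had an unadjusted p under 0.05, beside 34.6%. After centring 0 of 13 passed, beside 3.02% of all (100 lower and 38 higher), and 1 of 13 had an unadjusted p under 0.05, beside 20.8% of all. Nothing passed at day 14 in this fit, for members or for any other clone (0.0% called). There the unadjusted p was under 0.05 for 1 of 13 members as deposited, beside 17.6% of all clones, and for 0 of 13 after centring, beside 19.3%. With day 14 fitted alone, 0 of 14 members passed beside 853 of 5674 clones.

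The precision sets how large a change could have gone unseen. Standard errors of single clones ran from 0.108 to 0.18 at day 10 as deposited and from 0.101 to 0.17 after centring. After centring, the 95% interval lay within 1 of zero on the log2 scale for 13 of 13 members at day 10 and at day 14. It lay within 0.5 of zero for 11 of 13 at day 10 and for 12 of 13 at day 14. As deposited, it lay within 1 of zero for 13 of 13 at both times. Within 0.5 of zero as deposited were only 5 of 13 at day 10, where the interval ends ran from -0.779 to 0.388, and 12 of 13 at day 14. Between the 2 spots of a clone on an array, the median absolute difference was 0.143 for members and 0.147 for all tested clones.

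**Figure D1:**
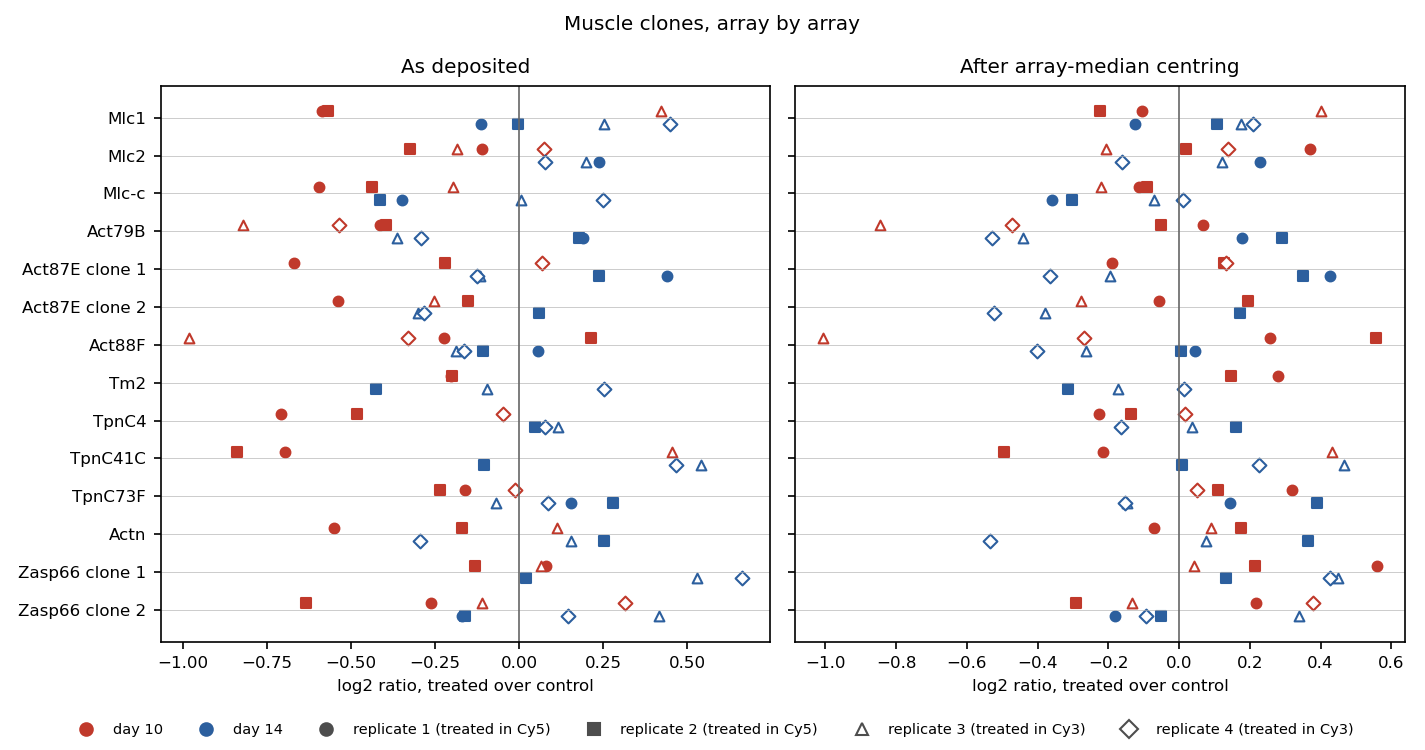
The log2 ratio of treated over control (horizontal axis) of each of the 14 member clones on each array, as deposited (left) and after subtracting the array median (right). Red marks day 10 and blue day 14, filled points are arrays with treated RNA in Cy5 and open points arrays with treated RNA in Cy3; the values run from -0.98 to 0.66 as deposited, and most day-10 values of replicates 1 and 2 lie left of 0 on the left only.

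The myosin light chains sit at the neck of each myosin head. Of the 4 genes in this role 3 were measured, Mlc1 (the essential light chain of muscle), Mlc2 (the regulatory light chain of muscle) and Mlc-c, and 0 of 3 passed at either time. Mlc-c encodes the cytoplasmic essential light chain, which works with non-muscle myosin, so this clone was on the list without being specific to muscle.

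Mlc1 had -0.59, -0.57 and 0.42 on day-10 replicates 1 to 3, and no value on replicate 4. At day 14 its 4 arrays gave -0.11, -0.004, 0.25 and 0.45. On both days the arrays with treated RNA in Cy5 were the low ones and those with treated RNA in Cy3 the high ones, and the days overlap. The fitted ratios were -0.14 ± 0.14 (SE, 3 arrays, adjusted p = 0.507) at day 10 and 0.15 ± 0.12 (SE, 4 arrays, adjusted p = 0.597) at day 14. After centring they were 0.08 (adjusted p = 0.766) and 0.09 (adjusted p = 0.684).

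Mlc2 ranged from -0.33 to 0.07 over 4 day-10 arrays and from 0.08 to 0.24 over 3 day-14 arrays, so that its lowest day-14 value lay just above its highest day-10 value. Centred, the same arrays gave -0.21 to 0.37 and -0.16 to 0.23, which overlap. Mlc-c was the lowest of the light chains, with -0.34 ± 0.13 at day 10 (SE, 3 arrays, adjusted p = 0.104) and -0.13 ± 0.11 at day 14 (SE, 4 arrays, adjusted p = 0.617). It was below 0 on each of the 3 day-10 arrays that measured it, from -0.60 to -0.20, also after centring, where those values were -0.22 to -0.09.

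The actins form the thin filament, and 3 of the 4 muscle actin genes on the list were measured on 4 clones. Fly actin genes are closely similar in coding sequence, so RNA of one, muscle or cytoplasmic, may bind a clone of another. The 4 clones may thus not be 4 separate measurements, nor measure muscle actin RNA alone. As deposited, the 4 clones had day-10 ratios of -0.54 to -0.29, with a median of -0.334. After centring the 4 were still below 0, from -0.33 to -0.03 with a median of -0.12, and none passed, while 48.8% of all tested clones were below 0. Only 2 of the 4 were below 0 after local centring (median -0.015), and 2 of 4 with the ratios read as already turned (median 0.03).

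Act79B had -0.41, -0.40, -0.82 and -0.54 on the 4 day-10 arrays. At day 14 it had 0.19, 0.18, -0.36 and -0.29. All 4 day-10 arrays were below all 4 day-14 arrays, and the 8 single day-10 spots were all below 0, from -0.88 to -0.22, against 4 of 8 at day 14. The fitted day-10 ratio was -0.54 ± 0.11 (SE, 4 arrays, adjusted p = 0.0101), with a 95% interval of -0.78 to -0.31, which is 0.686 of the control level. At day 14 it was -0.07 ± 0.11 (SE, 4 arrays, adjusted p = 0.786).

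Centring took the difference off the arrays with treated RNA in Cy5. There Act79B became 0.07 and -0.05, while the arrays with treated RNA in Cy3 kept -0.84 and -0.47. The centred estimate was -0.33 ± 0.10 (SE, 4 arrays, adjusted p = 0.0968). Leaving out each of the 8 arrays in turn kept the as-deposited day-10 call in 8 of 8 fits (adjusted p from 0.0119 to 0.0427). It gave no call in 8 of 8 centred fits (adjusted p from 0.102 to 0.24). The fits without a day-14 array left the day-10 values untouched, and the as-deposited estimate stayed at -0.54. Those without a day-10 array gave Act79B adjusted p values from 0.0245 to 0.0427 as deposited. With the same estimate of -0.54, its adjusted p was 0.0563 without the dye term and 0.0887 with day 10 fitted alone, a fit that also tested 7470 clones rather than 4563.

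The mean of both days, which uses all 8 arrays, also called Act79B alone among the members, at -0.31 ± 0.08 as deposited (SE, 8 arrays, adjusted p = 0.0274), beside 9.86% of all clones. After centring it had -0.23 ± 0.07 (SE, 8 arrays, adjusted p = 0.0826), and 0 of 13 members passed beside 6.44% of all, with 2 of 13 against 26.3% at an unadjusted p under 0.05. As deposited the call was lost without day-10 replicate 1 (adjusted p = 0.0572), day-10 replicate 2 (adjusted p = 0.0703), day-14 replicate 2 (adjusted p = 0.0542), day-14 replicate 3 (adjusted p = 0.123) or day-14 replicate 4 (adjusted p = 0.103). In those 5 fits the estimate stayed between -0.32 and -0.29.

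Act88F, whose array values are given although the rule for named clones did not call for them, had -0.22, 0.21, -0.98 and -0.33 at day 10 and 0.06, -0.11, -0.19 and -0.16 at day 14. Its widest excursion, on day-10 replicate 3, was the lowest value of any tested member on any array. The fitted ratio was -0.33 ± 0.14 at day 10 (SE, 4 arrays, adjusted p = 0.123) and -0.11 after centring (adjusted p = 0.725). The 2 clones of Act87E, another muscle actin, had -0.29 and -0.34 at day 10 (adjusted p = 0.272 and 0.145), and both lay within 0.13 of zero after centring. Clone 1 ran from -0.67 to 0.07 over its 3 day-10 arrays and clone 2 from -0.54 to -0.15 over its own 3.

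**Figure D2:**
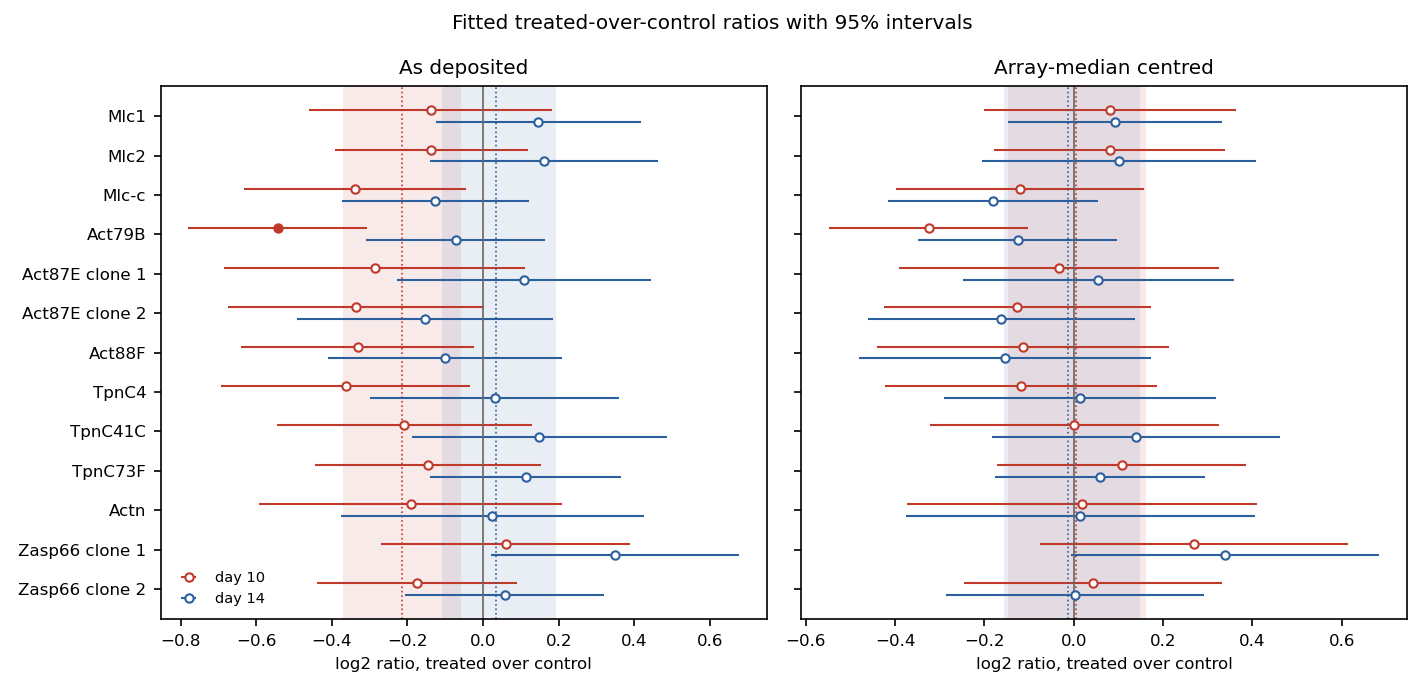
Fitted log2 ratios of treated over control with 95% intervals for the 13 tested members, as deposited (left) and centred (right), with day 10 in red and day 14 in blue. Shaded bands are the quartiles and dotted lines the medians of all 4563 tested clones; the single filled point, Act79B at day 10 as deposited (-0.54), passed the adjusted p of 0.05, and no point passed after centring.

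Troponin C is the calcium sensor of the thin filament, and 3 of its isoforms were tested. None passed at either time. TpnC73F, the isoform measured on most arrays, had -0.16, -0.24 and -0.014 on day-10 replicates 1, 2 and 4, and 0.15, 0.28, -0.07 and 0.09 at day 14. Its 3 day-10 values were all below 0 as deposited and all above 0 after centring (0.32, 0.11 and 0.05). The fitted day-10 ratio accordingly changed sign, from -0.15 ± 0.14 (SE, 3 arrays, adjusted p = 0.452) to 0.11 ± 0.12 (adjusted p = 0.683).

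The flight muscle isoform TpnC4 lay at -0.71, -0.48 and -0.05 on the 3 day-10 arrays that measured it and at 0.05, 0.12 and 0.08 on 3 day-14 arrays. The days did not overlap as deposited. Centring gave -0.23, -0.14 and 0.02 against 0.16, 0.04 and -0.16, which overlap. The tubular muscle isoform TpnC41C had -0.70, -0.84 and 0.45 at day 10 and -0.10, 0.54 and 0.47 at day 14, high on each array with treated RNA in Cy3 and low on each with treated RNA in Cy5. Its fitted ratio was -0.21 ± 0.15 at day 10 (SE, 3 arrays, adjusted p = 0.339) and 0.002 after centring.

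Tropomyosin was represented by Tm2, which met the member rule with 2 day-10 and 3 day-14 arrays but not the 3 arrays per day required for testing. It had -0.20 on both day-10 arrays, both with treated RNA in Cy5, and -0.43, -0.10 and 0.25 at day 14. In the wider fit that took clones with 2 arrays per day, its ratio was 0.05 ± 0.24 at day 10 and -0.17 ± 0.16 at day 14 (SE, adjusted p = 0.897 and 0.685). The first value has the opposite sign to the measured arrays, since day 10 held 1 dye orientation and its dye term came from day 14.

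In the Z-disc, the plate that anchors thin filaments, Actn (alpha-actinin, which cross-links actin and is also made outside muscle) and Zasp66 (a PDZ-domain protein of the Z-disc) were measured. None of the 3 clones passed. Zasp66 clone 2 had values on all 8 arrays: -0.26, -0.64, -0.11 and 0.31 at day 10 and -0.17, -0.16, 0.42 and 0.14 at day 14. Both days span 0 and overlap. The fitted ratios were -0.17 ± 0.12 (SE, 4 arrays, adjusted p = 0.313) and 0.06 ± 0.12 (SE, 4 arrays, adjusted p = 0.862).

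Zasp66 clone 1 was the 1 member with a day-10 estimate above 0 as deposited, 0.06, and it had the highest member estimate of day 14, 0.35 ± 0.15 (SE, 3 arrays, adjusted p = 0.266). It was also the member with the unadjusted p under 0.05 there. The clones of Zasp66 differed from each other by 0.111 to 0.520 over the 6 arrays that measured both, with clone 1 higher on each. Those of Act87E differed by 0.068 to 0.183 over 5 arrays, with clone 1 lower at day 10 and higher at day 14. Actn ran from -0.55 to 0.11 at day 10 and from -0.30 to 0.25 at day 14, and its fitted ratios were -0.19 and 0.02 (adjusted p = 0.456 and 0.964).

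Paramyosin, the rod protein at the core of insect thick filaments, fell just outside the member rule. Its 2 Prm clones were measured on 3 and 1 day-10 arrays and on 1 day-14 array each. Clone 1 had -0.44, -0.13 and -0.19 at day 10 and 0.48 at day 14, while clone 2 had -0.95 and -0.89. They were not tested in the comparisons above, and Tm2 was the member just inside the rule.

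The day-14 arrays were set against the day-10 arrays to ask whether ratios moved back after 4 days on normal food. As deposited, 0 of 13 tested members had a lower ratio at day 14 than at day 10, against 17.5% of all tested clones. The members' ratios were higher at day 14 by 0.18 to 0.47. The members' median difference was 0.284 and that of all tested clones 0.283. After centring, 6 of 13 were lower, against 47.5% of all, with medians of 0.012 and 0.016. No member and no other clone passed the test of this difference, as deposited or centred (0.0% called). At an unadjusted p under 0.05 the count was 1 of 13 against 26.8% as deposited, which was Act79B, and 0 of 13 against 10.4% centred.

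Act79B had the largest difference among the members, 0.47 ± 0.15 (SE, 8 arrays, adjusted p = 0.13), and 0.20 ± 0.14 (adjusted p = 0.611) after centring. Every day-14 array lay above every day-10 array for 3 of 13 members as deposited, namely Act79B, Mlc2 and TpnC4, against 11.7% of all tested clones, and for 0 of 13 after centring, against 4.84%. Below 0 on every measured day-10 array were 5 of 13 members, against 28.6% of all, and after centring 1 of 13 against 14.5%.

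For Mlc1 and TpnC41C the turned ratio followed the dye of the treated sample. The dye term is the fitted difference in the turned ratio between arrays with treated RNA in Cy5 and in Cy3, taken as common to both days. As deposited, it was -0.65 ± 0.19 for Mlc1 (SE, adjusted p = 0.0491) and -0.92 ± 0.22 for TpnC41C (SE, adjusted p = 0.032), and these 2 of 13 members passed beside 13.2% of all clones. The 4 actin clones had dye terms on the other side of 0, from 0.07 to 0.40, as did TpnC73F at 0.05, while the other 8 members and 79.1% of all tested clones were below 0. After centring the actin clones had 0.33 to 0.70 and TpnC41C -0.56, and 0 of 13 members passed beside 0.307% of all, with 4 of 13 against 20.4% at an unadjusted p under 0.05. The dye calls were also lost as deposited in the wider fit of clones with 2 arrays per day. There 0 of 14 members passed, beside 3.91% of all clones.

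As deposited, the direction of the ratios decides which of these clones was called. Without turning any sign, Mlc1 was below 0 on 7 of 7 arrays and TpnC41C on 6 of 6, while Act79B was below 0 on day-10 replicates 1 and 2 and above 0 on the other 6. If the files already held treated over control, Act79B would read 0.14 at day 10 (adjusted p = 0.58) and 0.20 for the mean of both days (adjusted p = 0.253), and it would not pass. TpnC41C would then be the 1 member called for the mean of both days, at -0.52 ± 0.13 (SE, 6 arrays, adjusted p = 0.0437), beside 5.24% of all clones, with -0.67 at day 10 (adjusted p = 0.106), where 0 of 13 members passed beside 0.241% of all. With centring under that reading as well, 0 of 13 members passed for the mean of both days, where 29 of all tested clones passed. The direction of the ratios could not be settled from the sources used here, so neither call is free of it, and neither held after centring.

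**Figure D3:**
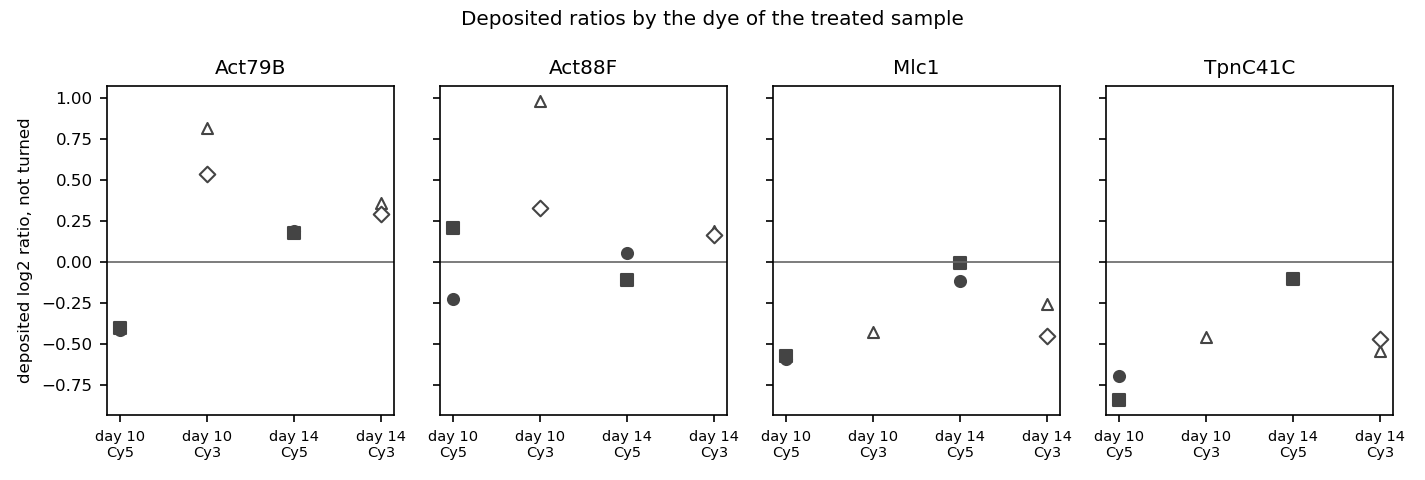
Deposited log2 ratios (vertical axis) before any sign is turned, for 4 members, by day and by the dye of the treated sample (horizontal axis). Circles, squares, triangles and diamonds are replicates 1, 2, 3 and 4; Act79B changes sign between dyes at day 10 (-0.41 and -0.40 against 0.82 and 0.54), while Mlc1 and TpnC41C stay below 0 on each array.

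Genes that work beside the contractile proteins were examined as further lists. Of 22 other genes of the sarcomere and of muscle attachment, 6 are in the annotation and 2 clones were tested, and 0 of 2 passed at day 10 as deposited or centred. Those were jbug, a filamin family gene, at -0.06 and Tsp, which encodes the thrombospondin of tendon attachment, at -0.37 as deposited (adjusted p = 0.0658). Of 15 genes of calcium handling and the neuromuscular junction 1 clone was tested, Ca-alpha1D, which encodes a voltage-gated calcium channel subunit, and it did not pass at -0.24 at day 10 (adjusted p = 0.268) and 0.23 at day 14 (adjusted p = 0.461). The 6 tested clones of the cytoplasmic actin, myosin and actin regulator list had a day-10 median of -0.256, or -0.039 after centring, and 0 of 6 passed.

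Some enzymes of glycolysis, a pathway of every tissue that muscle uses heavily, passed as lower in treated heads at day 10 with the signs turned. Of the 16 genes on this list 12 are in the annotation, on 13 tested clones, and 4 of 13 passed as lower as deposited beside 13.6% of all tested clones, with a list median of -0.39. The 4 were Gpdh1 (glycerol-3-phosphate dehydrogenase) at -0.79 (adjusted p = 0.00732), Eno (enolase) at -0.66 (adjusted p = 0.00889), 1 of 2 clones of Gapdh1 at -0.59 (adjusted p = 0.0173) and Pgi at -0.58 (adjusted p = 0.0138). The other clone of Gapdh1 had -0.50 and did not pass (adjusted p = 0.0592). After centring the list median was -0.172 and 0 of 13 passed at day 10, while Gpdh1 passed for the mean of both days at -0.53 (adjusted p = 0.0177). For that mean as deposited, 5 of 13 passed as lower, beside 9.47% of all clones: Eno, Pgi, Pglym78, Gpdh1 and Glyp (glycogen phosphorylase). Read as already turned, 0 of 13 passed at day 10 or for the mean, with medians of -0.073 and -0.049. Of the 12 regulators of muscle transcription and splicing, 3 clones were tested, and Rbfox1, which encodes a splicing factor of muscle and neurons, was lower at day 10 as deposited (-0.48, adjusted p = 0.0387) and did not pass after centring, and 0 of 3 passed when read as already turned.

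Among markers of other head tissues, some clones of the fat body and of glia passed as lower at day 10 with the signs turned. The 9 tested fat body clones ran from -1.28 to 0.44 as deposited, with a day-10 median of -0.886, or -0.668 after centring. Of them 5 of 9 passed as lower as deposited, beside 13.6% of all clones, and 3 of 9 after centring, beside 2.19%, with apolpp, Lsp2 and Adh called in both. The 5 glial clones ran from -0.92 to 0.21, with medians of -0.586 and -0.368, and 4 and 1 of 5 passed as lower, Tret1-1 in both. Read as already turned, the fat body median was 0.27, on the other side of 0, and the glial median -0.307, and 0 of 9 and 0 of 5 passed. Medians of the 6 photoreceptor clones were -0.336 and -0.118 and of the 2 neuronal clones 0.058 and 0.276, with 0 passing in each. Members had -0.208 and 0.002 beside these, and the part of changed tissue shares in any member's ratio was not tested.

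**Figure D4:**
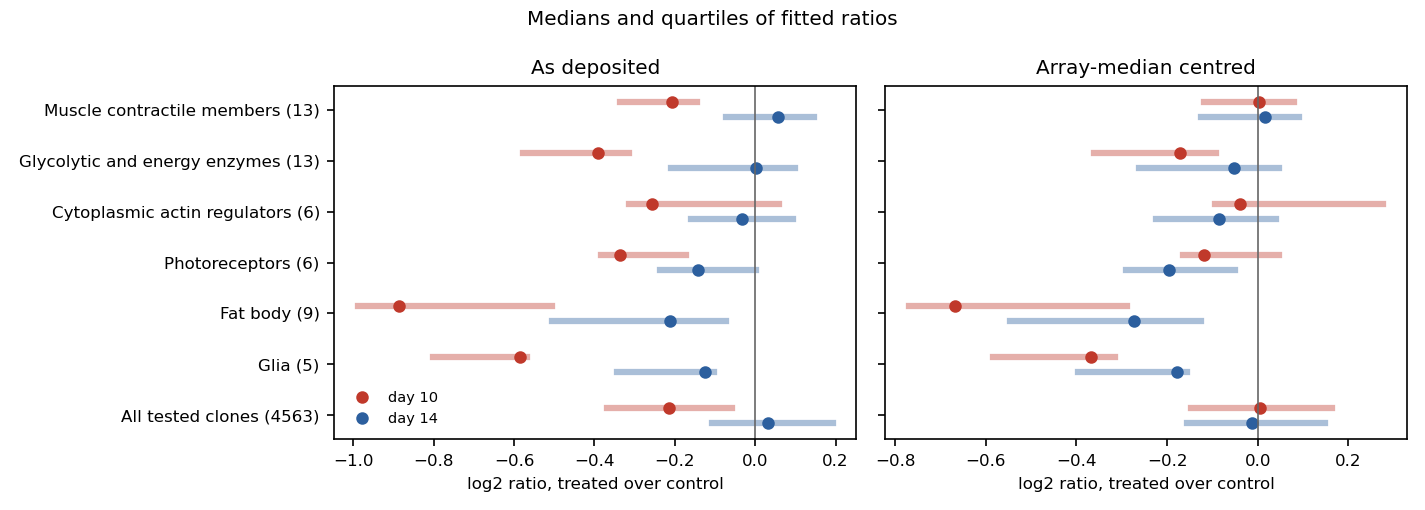
Medians (points) and quartiles (bars) of the fitted log2 ratio of treated over control for the contractile members and 5 other lists, with the number of tested clones in brackets, beside all tested clones. Day 10 is red and day 14 blue; the members' medians (-0.208 and 0.057 as deposited, 0.002 and 0.015 after centring) lie next to those of all clones, and with the signs turned the fat body list has the lowest day-10 median plotted (-0.886), which is 0.27 with the ratios read as already turned.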

How the data were processed

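Per the series' design text, the authors scanned the slides in a GenePix scanner, quantified them in GenePix Pro, normalized ratios in Acuity and filtered spots on intensity, background, saturation, flags, regression and signal to noise. The deposited values are log2 ratios per spot, as judged from their range. Background method, centring and numerator are not given in the sources used here.

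The 27648 spots were averaged to 13824 clones of 2 spots. Gene names come from the platform annotation, updated by gene ID through RefSeq names of Release 6: 7558 clones have 1 gene, 51 several and 6215 none. Ratios of replicates 3 and 4 were given the opposite sign. limma 3.58.1 in R 4.3.3 was fitted to 4563 clones with values on 3 or more arrays per day and under either dye order, with coefficients for each day and a clone-specific dye term. Adjusted p values are Benjamini-Hochberg over all tested clones at 0.05. The number of arrays limits the precision. The script was tested on simulated data.

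Named clones were those that passed in any contrast and, per role, the one measured on most arrays. Array values of Act88F, TpnC4, TpnC41C, Tm2 and Prm and the ranges of the others, and the names jbug, Tsp and Ca-alpha1D, were added after values were seen. The members, the lists and the tests were chosen with earlier results of these data known. Replicates come from separate parallel sets of pooled heads. Alternatives were array-median and local centring, the other reading of the ratios, other filters, no dye term, each day alone, each array left out, a replicate block, fixed or random, and 1 value per gene. Sequences of clones and promoters were not used here.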

Additional observations from a re-analysis of the deposited data

Results flagged for a closer look

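TpnC4, the troponin C gene of flight muscle, had day-10 and day-14 ratios on opposite sides of 0 on every array that measured it, once the signs were turned. As deposited, the 3 day-10 values were all below 0 and the 3 day-14 values all above 0, and the means of the days differed by 0.493. Its single spots did not separate in this way. Of these, 5 of 6 were below 0 at day 10 (highest 0.038) and 2 of 6 at day 14 (lowest -0.12). The share of all clones with this pattern is not given here. The difference itself did not pass limma's test in the fit with the dye term (0.39 ± 0.21, SE, adjusted p = 0.251), and it was 0.13 after centring (adjusted p = 0.817), where the days were no longer on opposite sides. Without turning, day-10 replicate 4 was above 0 (0.05) and day-14 replicates 3 and 4 below 0 (-0.12 and -0.08), so the pattern was not there under that reading. Of 26 sets of 4 values, 0 held a value far from the other 3 by Dixon's criterion, which chance flags in about 1 of 20 sets. TpnC4, with 3 values on each day, gave no such set, and neither did other members on days with fewer than 4 values.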

How the results depend on the processing

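The count of 1 member called at day 10 became 0 after array-median centring, local centring, reading the ratios as already turned, leaving out the dye term, fitting each day alone and, in settings added after the results were seen, centring with 2 arrays per day, centring with the already turned reading, and centring without each array (0 to 0). The count of 1 for the mean of both days became 0 after array-median and local centring, without the dye term, in the same added settings and in 5 of the 8 fits without 1 array (0 to 1), and TpnC41C replaced Act79B under the already turned reading. Act79B then changed sign, to 0.137 at day 10 and 0.196 for the mean, or 0.333 and 0.346 with centring. The day-10 median became 0.062 under local centring, which lost Mlc2. The day-14 median of 0.057 became 0.015 after array-median centring, -0.025 after local centring and -0.014 under the already turned reading, and ran from -0.018 to 0.122 without 1 array. The cause was not tested. Counts of 0 at day 14 and for the difference between days held in every setting run. Over all clones, 638 calls at day 10 became 138 with array-median and 60 with local centring, and 11 under the already turned reading. They became 268 without the dye term, 87 of 7470 clones with day 10 alone, and 226 to 684 without 1 array. Day 14 fitted alone, without a shared spread, called 853 of 5674 clones and 0 of 14 members. For the mean of both days 450 became 294, 190, 239 and 199 in the first 4 of these settings. Of 1049 single-clone results under an alternative, 837 kept direction and side of the threshold, 30 lost the call, 1 gained one, 4 reversed and 177 changed sign without passing in either fit. Equal replicate numbers were not taken to pair the arrays. The correlations of their deviations from the day mean were 0.0997, 0.265, 0.157 and 0.252 over 1881 clones. The first fell just short of the cut-off used, although 4 of 4 arrays correlated best with their own number. Equal numbers shared the dye order on both days, and dye was not removed from the deviations. These correlations therefore mix dye with any pairing. With the replicate block, the difference between days called 0 members. A random replicate block, added after the results were seen, gave an estimated correlation of -0.253 beside the dye term. Under it Act79B stayed the 1 member called at day 10 (adjusted p = 0.00902) and for the mean of both days (adjusted p = 0.00868), where 797 clones passed in place of 450. A negative correlation narrows the standard error of the mean of both days. The smaller adjusted p for that mean is therefore partly set by this fit.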
